A study of Mus musculus with 48 samples.

Results

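The genes described here are 9 markers of the GABAergic interneurons of the mouse hippocampus, chosen by name: Gad1, Gad2, Slc32a1, Pvalb, Sst, Vip, Npy, Cck and Reln. All 9 were found among the 48440 genes of the count table, and all 9 were among the 31208 genes with enough reads to be tested. The libraries came from the hippocampus of both hemispheres of 48 female C57BL/6 offspring aged 3 months. There were 6 groups, each named by the 5-Htt genotype (the serotonin transporter gene, Slc6a4) on its label and by the offspring's history. Control (C) offspring came from unstressed dams, 8 labelled 5-Htt+/+ and 7 labelled 5-Htt+/-. Prenatal stress (PS) offspring came from dams restrained from embryonic day 13 to 17, and the study called an animal socially affected (SA) or unaffected (SU) from its sociability in a 3-chamber test, which the labels term susceptible and resilient. These were 8 SA and 8 SU labelled 5-Htt+/+, and 8 SA and 9 SU labelled 5-Htt+/-. The transporter deletion is constitutive and all animals shared 1 strain. SA and SU were defined by behaviour, so they are not randomised groups.

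Inhibitory interneurons are a minority of hippocampal neurons, and they time and restrain the firing of pyramidal and granule cells. They make GABA from glutamate with the glutamate decarboxylases encoded by Gad1 (GAD67, in the cell body and terminals) and Gad2 (GAD65, mainly at terminals), and Slc32a1 encodes the vesicular transporter (VGAT) that loads GABA into synaptic vesicles. The classes are told apart by what else they make: Pvalb encodes the calcium buffer parvalbumin of fast-spiking basket cells, Sst somatostatin of dendrite-targeting cells, Vip the peptide of cells that mainly inhibit other interneurons, Npy neuropeptide Y, and Reln the secreted protein reelin, made in the adult by interneurons and by remaining Cajal-Retzius cells. Cck encodes cholecystokinin, which marks a class of basket cells but is also transcribed in pyramidal cells. In whole tissue, fewer cells of a type and less RNA per cell cannot be told apart.

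Total counts were 16488405 to 38213754 per library, with a median of 24125647.5. Slc6a4 separated the genotype labels without overlap, but was higher in the libraries labelled 5-Htt+/-, the genotype with the deletion. It was at 0 to 0.261 CPM (read counts scaled to a common library size) in the 24 libraries labelled 5-Htt+/+ and at 12.8 to 17.0 CPM in the 24 labelled 5-Htt+/-, a log2 difference of 6.72 (SE 0.09). The genotype is therefore given as labelled in every comparison, and a direction between genotypes is a direction between labels. The reason was not tested. Of the marker lists of other tissue and cells, the 10 choroid plexus genes differed most between libraries, with a summed level of 25.8 to 942 CPM; every one of them had reads in every library.

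The 9 genes lie on 7 chromosomes (GRCm38). Gad1 (chr2:70553072-70602014), Gad2 (chr2:22622205-22693874) and Slc32a1 (chr2:158610767-158615748) are on the plus strand of chromosome 2. Vip (chr10:5639218-5647614) and Npy (chr6:49822710-49829507) are on plus strands, and Pvalb (chr15:78191114-78206400), Sst (chr16:23889581-23890844), Cck (chr9:121489825-121495689) and Reln (chr5:21884454-22344702) on minus strands. Their transcripts differ in base composition, which is given here because the libraries differed along a gradient of it, described further on. The GC content of the transcripts was 61.9% for Slc32a1, 56.9% for Cck, 56.0% for Sst, 53.7% for Npy, 51.1% for Reln, 49.3% for Pvalb, 47.3% for Gad1, 44.1% for Gad2 and 38.7% for Vip. Among the genes above 5 CPM with a value, without the 9, Slc32a1 stood at percentile 98.3 and Vip at percentile 3.54. The first 30 codons of the GENCODE coding sequences are shown for the highest and the lowest of these, with the paralogous pair Gad1 and Gad2, because the difference is already visible in the coding sequence: capitals mark a G or C at the third codon position.

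Slc32a1: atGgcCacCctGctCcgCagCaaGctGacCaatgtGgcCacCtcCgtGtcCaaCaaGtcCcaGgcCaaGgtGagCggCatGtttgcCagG
Gad1: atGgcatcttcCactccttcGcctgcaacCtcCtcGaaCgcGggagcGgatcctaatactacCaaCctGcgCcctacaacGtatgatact
Gad2: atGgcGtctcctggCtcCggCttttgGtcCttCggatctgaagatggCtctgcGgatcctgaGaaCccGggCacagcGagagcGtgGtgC
Vip: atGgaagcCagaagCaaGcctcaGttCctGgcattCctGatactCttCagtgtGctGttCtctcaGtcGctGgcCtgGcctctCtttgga

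In this stretch 28 of 30 codons of Slc32a1 (chr2:158611242-158611331) ended in G or C, against 14 of 30 in Gad1 (chr2:70563832-70567196, with an intron inside), 18 of 30 in Gad2 (chr2:22622663-22623449, with an intron inside) and 20 of 30 in Vip (chr10:5640628-5640717). Over the whole coding sequence the share was 84.6% in Slc32a1, 59.1% in Gad1, 54.3% in Gad2 and 51.2% in Vip. Slc32a1 and Gad2, whose products load and make GABA in the same terminals, are thus far apart over the whole coding sequence. The opening codons alone do not follow the order of the transcripts: Vip, the lowest in transcript GC, had more codons ending in G or C there than either decarboxylase, and Reln, which is not shown, had 29 of 30.

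The RefSeq promoters (GRCm38.p6, 300 bases that end shortly after the start) are shown for Sst, Cck and Vip, because the peptide genes Sst and Cck had the highest correlation of any pair across libraries before the GC score described further on was removed, and Vip did not follow them there (r = -0.0412 with Cck and -0.0619 with Sst). Capitals mark matches to TGACG, the core of the cAMP response element, on either strand (CGTCA on the other strand).

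Sst: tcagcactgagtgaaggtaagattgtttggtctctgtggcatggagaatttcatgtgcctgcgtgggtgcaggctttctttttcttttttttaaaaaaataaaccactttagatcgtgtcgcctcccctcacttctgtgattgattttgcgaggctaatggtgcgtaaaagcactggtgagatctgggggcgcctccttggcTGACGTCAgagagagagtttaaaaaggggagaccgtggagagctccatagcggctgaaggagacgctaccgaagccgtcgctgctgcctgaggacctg
Cck: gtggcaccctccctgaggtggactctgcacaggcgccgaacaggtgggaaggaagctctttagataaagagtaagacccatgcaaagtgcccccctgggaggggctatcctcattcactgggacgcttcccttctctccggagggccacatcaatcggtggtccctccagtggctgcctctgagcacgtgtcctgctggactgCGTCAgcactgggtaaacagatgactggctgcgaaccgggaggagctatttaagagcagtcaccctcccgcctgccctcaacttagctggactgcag
Vip: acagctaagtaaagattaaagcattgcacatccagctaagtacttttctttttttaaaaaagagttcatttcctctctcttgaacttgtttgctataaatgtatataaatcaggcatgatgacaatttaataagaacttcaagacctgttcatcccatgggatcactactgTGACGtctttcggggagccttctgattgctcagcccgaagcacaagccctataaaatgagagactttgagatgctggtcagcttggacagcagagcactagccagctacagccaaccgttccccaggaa

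The full element TGACGTCA was in the promoter of Sst (chr16:23890795-23891094, minus strand), where it holds both of the 2 overlapping TGACG matches, and in 1.79% of all 32851 promoters. Cck (chr9:121495645-121495944, minus strand) and Vip (chr10:5638968-5639267, plus strand) held 1 match to TGACG each, as did Gad2, and 20.8% of all promoters held at least 1. The promoters of Gad1, Slc32a1, Npy, Reln and both listed for Pvalb held none. A match is a description of the letters and not of binding, and its relation to the correlations was not tested.

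All 9 genes were well covered. Gad1 was the highest on the CPM scale, which takes no account of length (265 ± 16.9 CPM, SD, n = 48), followed by Cck (129 ± 14.3 CPM) and Gad2 (129 ± 14.9 CPM). Reln (71.0 ± 6.54 CPM), Sst (64.0 ± 8.78 CPM) and Slc32a1 (38.5 ± 6.76 CPM) were intermediate, and Npy (18.2 ± 2.39 CPM), Pvalb (17.9 ± 2.58 CPM) and Vip (12.5 ± 2.14 CPM) were lowest. Even Vip had 180 to 505 reads per library. Per kilobase of annotated exon the order changed: Cck (99.1 CPM per kb) and Sst (88.8) came first, Gad1 (34.6), Npy (32.1), Gad2 (21.9), Pvalb (17.2) and Slc32a1 (13.8) followed, and Vip (3.68) and Reln (2.99) came last. Slc32a1 and Vip varied most between libraries, with a coefficient of variation of 17.6% and 17.1%, and Gad1 least, with 6.38%.

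**Figure D1:**
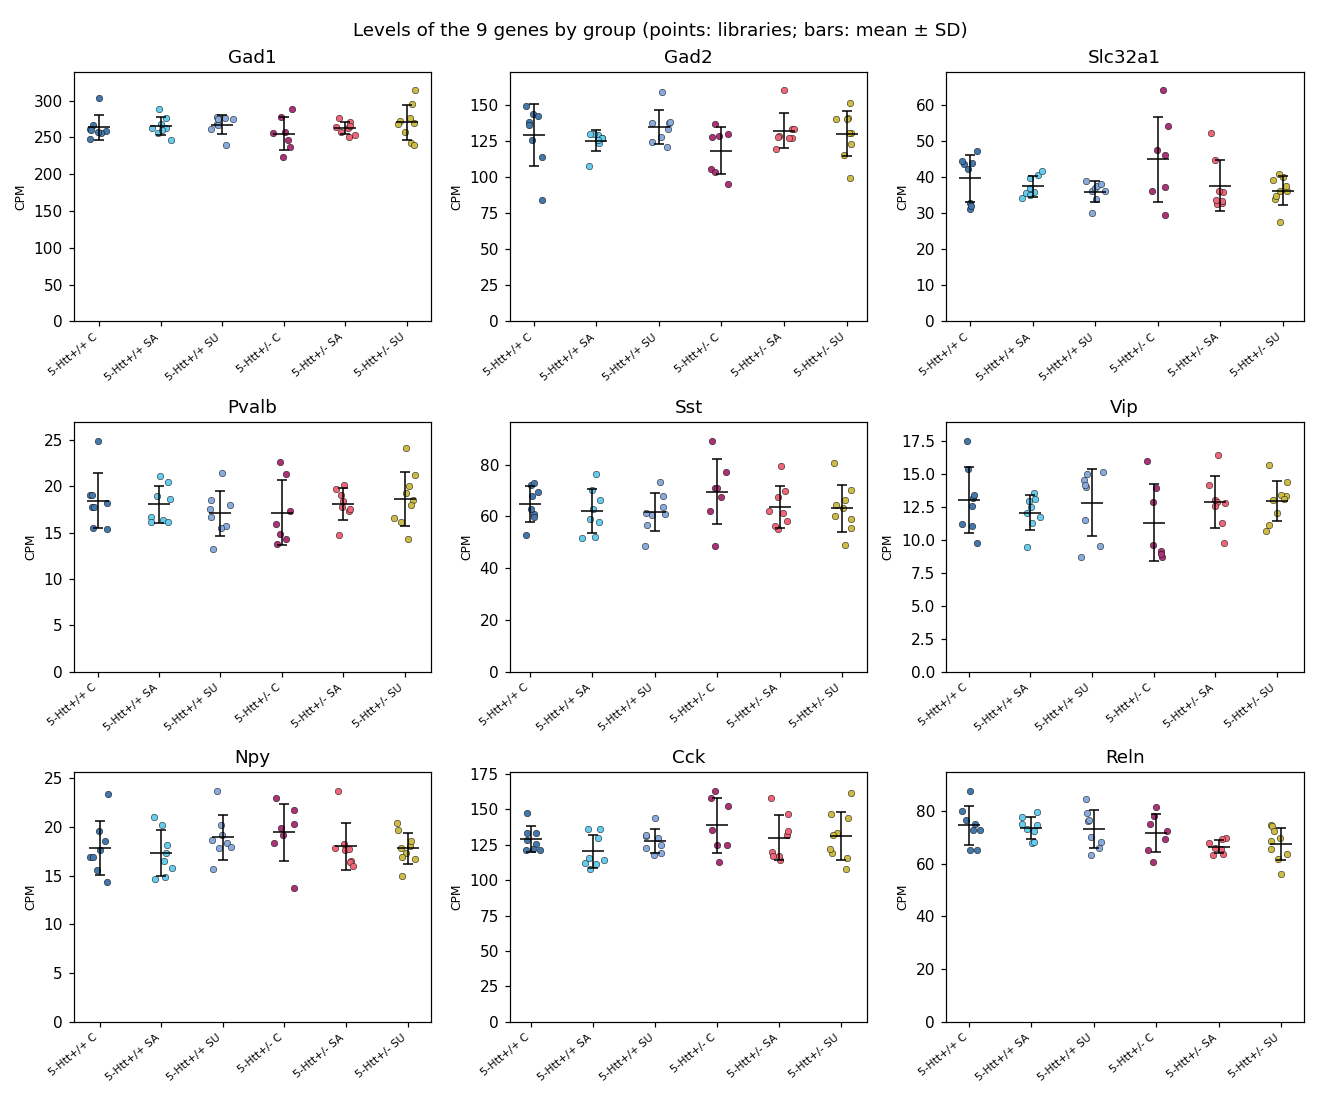
Level of each of the 9 genes in CPM (vertical axis, from 0) in the 6 groups (horizontal axis); points are libraries and black bars the group mean ± SD. For every gene the groups overlap, and the widest spread of Slc32a1, from 29.6 to 64.1 CPM, is in the controls labelled 5-Htt+/-.

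The question of the study was whether prenatal stress and its social outcome leave a mark on the hippocampal transcriptome, and whether the 5-Htt genotype alters it. For the interneuron genes the differences were small in each of the 11 comparisons made. The genotype labels were not compared within SA or within SU alone. Stressed offspring with SA and SU pooled were not compared with control within a single genotype label. By edgeR's quasi-likelihood test with Benjamini-Hochberg adjustment over all 31208 genes, no gene of the 9 passed an adjusted p of 0.05 in any comparison, and the smallest adjusted p among 99 values was 0.202. At an unadjusted p under 0.05 there were 4 of 99 values, 3 of Slc32a1 and 1 of Reln. Over all genes tested, the unadjusted threshold called 2.52% to 14.7% depending on the comparison, and the adjusted threshold 0% to 0.0385%. Ordered by mean, the 6 groups never stepped by as much as the smaller SD of the neighbouring groups, for any of the 9 genes. Such steps divide the whole range of the means between them, so they do not show that the range is small. From lowest to highest group mean, the range exceeded the median group SD for Slc32a1 (8.99 against 5.31 CPM), Cck (18.3 against 13.8 CPM), Gad2, Reln and Gad1. It was below the median group SD for Pvalb, Sst, Vip and Npy. The largest ratio between the highest and the lowest group mean was 1.25, for Slc32a1, and the smallest 1.06, for Gad1.

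Neither decarboxylase passed a threshold with prenatal stress in the reported fit. Gad1 had a lowest, median and highest level of 249, 259 and 304 CPM in 5-Htt+/+ C, 247, 263 and 289 CPM in SA, and 240, 272 and 277 CPM in SU. In the groups labelled 5-Htt+/- these were 223, 256 and 289 CPM in C, 251, 264 and 277 CPM in SA, and 240, 270 and 314 CPM in SU. The 6 ranges overlapped. Averaged over both genotypes and both social outcomes, Gad1 differed from control by a log2 fold change of 0.04 (SE 0.03, 95% interval -0.02 to 0.10, unadjusted p = 0.210 by edgeR). Without the 6 libraries lowest on the first principal component of all genes it was 0.06 (unadjusted p = 0.0232), and with a score of GC content as a term, described further on, 0.07 (unadjusted p = 0.0223); neither passed the adjusted threshold. Gad2 ran from 84.1 CPM (median 137, highest 149) in 5-Htt+/+ C, 108 CPM (median 127, highest 130) in SA and 121 CPM (median 136, highest 159) in SU. It ran from 95.3 CPM (median 128, highest 137) in 5-Htt+/- C, 120 CPM (median 128, highest 160) in SA and 99.3 CPM (median 131, highest 152) in SU. The medians of Gad2 lay between 127 and 137 CPM in all groups, and the controls held the lowest libraries of each genotype. Its log2 fold change was 0.08 (SE 0.05, 95% interval -0.03 to 0.18, unadjusted p = 0.140 by edgeR).

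Slc32a1 had the largest differences of the 9. In the libraries labelled 5-Htt+/+ the lowest, median and highest levels were 31.2, 43.0 and 47.2 CPM in C, 34.3, 36.4 and 41.7 CPM in SA, and 30.0, 36.6 and 39.0 CPM in SU. In those labelled 5-Htt+/- they were 29.6, 46.1 and 64.1 CPM in C, 32.6, 34.7 and 52.2 CPM in SA, and 27.6, 36.3 and 41.0 CPM in SU. The controls had the higher medians in both genotypes, but their lowest libraries lay within the range of the SU libraries of the same genotype. Against control, the log2 fold change was -0.26 (SE 0.11) in SA labelled 5-Htt+/- and -0.31 (SE 0.11) in SU labelled 5-Htt+/-. By edgeR their unadjusted p-values were 0.0237 and 0.00572, and their adjusted p-values 0.404 and 0.202. In those 2 comparisons the unadjusted threshold called 11.4% and 14.7% of the genes tested, and 0.0256% and 0.016% passed the adjusted threshold, so that 1 gene of 9 in each is near that background. In the libraries labelled 5-Htt+/+ Slc32a1 gave -0.08 (SE 0.11, SA) and -0.14 (SE 0.11, SU), where the unadjusted threshold called 2.52% and 2.96% of the genes tested and none of the 9, and the adjusted threshold 0% and 0.0032%. Over both genotypes the log2 fold change was -0.20 (95% interval -0.33 to -0.06, unadjusted p = 0.00444, adjusted p = 0.322), against a background of 12.3% at the unadjusted threshold and 0.0385% at the adjusted. The difference of this effect between the genotype labels was -0.17 (95% interval -0.44 to 0.10, adjusted p = 0.876), so it was not shown to differ between them; there the unadjusted threshold called 5.32% of the genes tested and none of the 9.

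**Figure D2:**
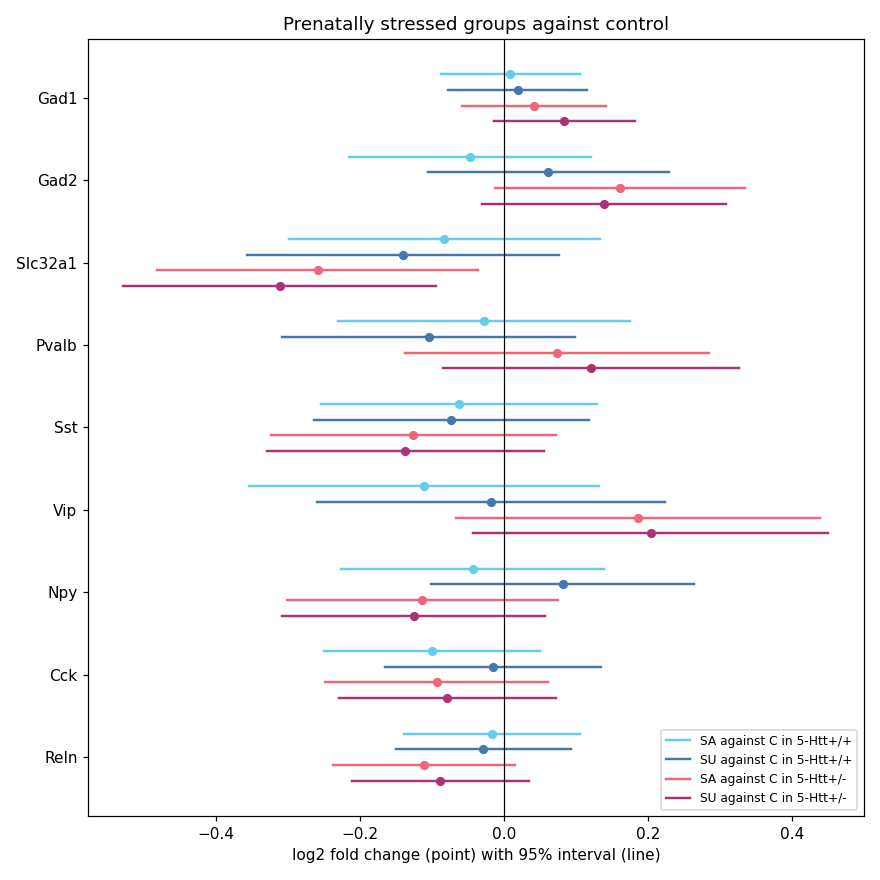
log2 fold change (horizontal axis) of each of the 9 genes (vertical axis) in SA and SU against C within each genotype label; points are estimates and lines 95% intervals. The intervals cross 0 except for Slc32a1 in the libraries labelled 5-Htt+/-, at -0.26 and -0.31, and neither of these passed the adjusted threshold.

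The class markers had intervals that crossed 0 in all comparisons with control in the reported fit. Pvalb had group medians of 15.9 to 18.5 CPM, and its lowest library was at 13.2 CPM and its highest at 24.9 CPM. Averaged over both genotypes its log2 fold change after prenatal stress was 0.02 (95% interval -0.11 to 0.14), and 0.13 (95% interval 0.02 to 0.25, unadjusted p = 0.0263 by edgeR, short of the adjusted threshold) without the same 6 libraries. Those 6 include the highest Pvalb library of 5-Htt+/+ C (24.9 CPM), of 5-Htt+/- C (22.6 CPM) and of 5-Htt+/- SU (24.1 CPM). Sst had group medians of 61.0 to 70.9 CPM within a range of 48.4 to 89.3 CPM, and a log2 fold change of -0.10 (95% interval -0.22 to 0.02). Its highest median was in the controls labelled 5-Htt+/-, as was that of Npy (19.9 CPM, against 16.9 to 18.5 CPM in the other groups). Npy changed by -0.05 (95% interval -0.16 to 0.06) and Cck, with group medians of 115 to 135 CPM, by -0.07 (95% interval -0.17 to 0.02). Vip went the other way between the control groups: its median was 9.57 CPM in those labelled 5-Htt+/- and 12.8 CPM in those labelled 5-Htt+/+. The stressed groups had Vip medians of 12.2 to 14.1 CPM, and the log2 fold change was 0.06 (95% interval -0.09 to 0.22). The median log2 fold change of all 9 genes was -0.05, beside -0.0040 over all genes tested.

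SA and SU animals were compared directly, since the social outcome is the study's measure of susceptibility. Within 5-Htt+/+ labels the largest difference was that of Npy, at -0.13 (SE 0.09, unadjusted p = 0.176), and within 5-Htt+/- labels that of Slc32a1, at 0.05 (SE 0.10, unadjusted p = 0.614). At the unadjusted threshold 3.49% and 3.25% of all genes were called, and none of the 9; at the adjusted threshold 0% of all genes were called in both. The three-way contrast, SA against SU in 5-Htt+/+ less the same in 5-Htt+/-, ran from -0.14 (Npy) to 0.12 (Pvalb), with 0 of 9 called and 3.38% of all genes at the unadjusted threshold. For Slc32a1 it was 0.0043 (95% interval -0.30 to 0.31), which bounds the difference only to that interval.

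Reln was the gene of the 9 with the smallest p between the genotype labels over all groups, and it did not pass the adjusted threshold. In the libraries labelled 5-Htt+/+ its lowest, median and highest levels were 65.3, 74.0 and 87.7 CPM in C, 67.9, 73.8 and 79.7 CPM in SA, and 63.2, 73.1 and 84.5 CPM in SU. In those labelled 5-Htt+/- they were 60.5, 72.2 and 81.5 CPM in C, 63.3, 65.7 and 69.7 CPM in SA, and 56.2, 68.4 and 74.7 CPM in SU. Each 5-Htt+/- median lay below the 5-Htt+/+ median of the same history, and the ranges overlapped in all 3 pairs. The log2 difference was -0.11 (SE 0.04, 95% interval -0.18 to -0.04), with an unadjusted p of 0.00406 and an adjusted p of 0.956 by edgeR. Here 4.49% of the genes tested were called without adjustment and 0.0224% with it. In controls alone it was -0.05 (95% interval -0.18 to 0.07), where 7.61% of the genes tested and none of the 9 were called without adjustment, and 0.0128% with it. Reln overlaps the antisense gene Gm10475, which had 23.7% as many reads as Reln, and without the strand setting of the counting the reads of the 2 genes cannot be told apart. Gm10475 gave -0.05 (95% interval -0.15 to 0.05) for the same difference. Slc32a1 likewise overlaps the antisense gene Gm14205, which had 16.8% as many reads and gave -0.17 (SE 0.08, adjusted p = 0.395) with prenatal stress over both genotypes. Of the remaining genes Cck came nearest between the genotype labels, at 0.08 (95% interval -0.0019 to 0.17, unadjusted p = 0.0550).

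The libraries differed from each other along a gradient of base composition, and the levels of the 9 genes followed it. The gradient was measured in each library as a GC score: the mean log2 deviation of the 1443 genes of highest transcript GC content (over 57.6%) less that of the 1443 of lowest (under 41.1%), among genes above 5 CPM and without the 9. The first principal component of all genes, with 7.63% of the variance, correlated with it at r = -0.974. After removal of the group means, Slc32a1 rose with the score (r = 0.851, rho = 0.865) and Gad2 fell (r = -0.774, rho = -0.702), each with a permutation p of 1e-05, the smallest that 100000 resamples can give. Npy (r = 0.639), Sst (r = 0.607), Cck (r = 0.604) and Reln (r = 0.598) rose with it too, and Vip fell (r = -0.428). All 9 values of r passed 0.05 after adjustment over the 9, Pvalb (r = 0.450) and Gad1 (r = 0.403) among them, but without the 2 libraries farthest from the median score these last were 0.324 and 0.263, and rho of Pvalb did not pass (rho = 0.300, adjusted p = 0.0581, permutation test). The 2 genes of lowest GC content, Vip and Gad2, were those that fell. Vip, the lowest, fell less than Gad2, and Gad1, with 47.3% GC, rose, so r did not follow GC content in order. The relation of r to GC content over the 9 genes was not tested. Within the genotype labels, Slc32a1 had r = 0.777 (5-Htt+/+) and 0.903 (5-Htt+/-), and Gad2 -0.760 and -0.794, with n = 24 each.

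**Figure D3:**
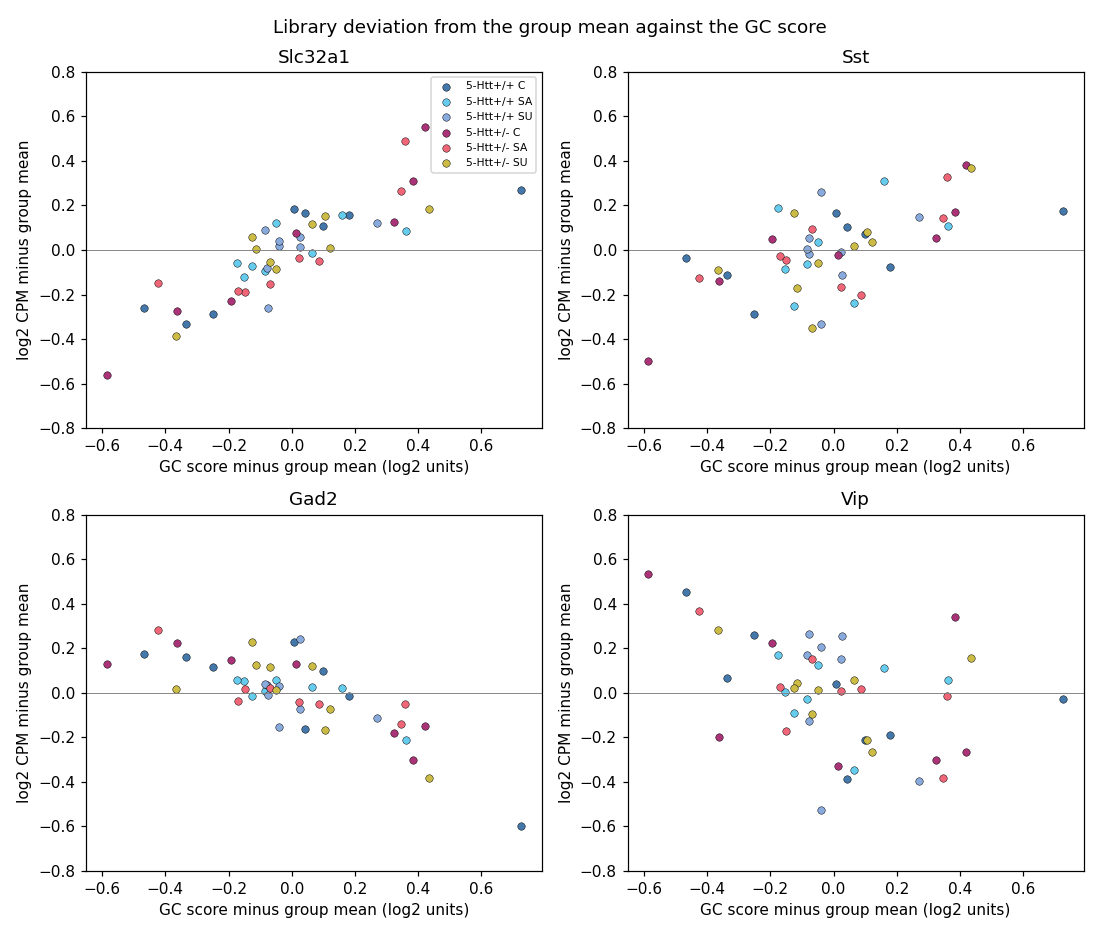
log2 CPM of Slc32a1, Sst, Gad2 and Vip less the group mean (vertical axes) against the GC score less the group mean (horizontal axes, log2 units); points are the 48 libraries, coloured by group. Slc32a1 climbs from lower left to upper right (r = 0.851), and Gad2 descends (r = -0.774).

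The score was not spread evenly over the groups. It averaged 0.26 ± 0.40 (SD, n = 7) in the controls labelled 5-Htt+/-, and -0.12 to 0.01 in the other 5 groups. Of the 6 libraries lowest on the first component, which are high in the score, 3 were among these 7 controls. Without these 6 libraries the log2 fold change of Slc32a1 after prenatal stress was -0.05 (95% interval -0.19 to 0.08) in place of -0.20. The 3 controls left out were the highest of their group for Slc32a1 (64.1, 54.2 and 47.7 CPM, next 46.1 CPM). Replicate 7 of 5-Htt+/+ C, also left out, was the highest of its group (47.2 CPM). The stressed libraries left out were at 41.0 CPM (5-Htt+/- SU) and 39.7 CPM (5-Htt+/+ SA). This setting thus removes the top of the control groups. With the score as a term of the fit, an alternative added after the data were seen, the log2 fold change of Slc32a1 after prenatal stress was -0.04 (95% interval -0.12 to 0.03), and in SU labelled 5-Htt+/- -0.06 in place of -0.31. The score and the first component are closely correlated, so these settings are not independent of each other. The difference of Reln between the genotype labels was -0.12 without the 6 libraries and -0.13 (95% interval -0.19 to -0.07, unadjusted p = 3.08e-05, adjusted p = 0.0874) with the score. What set the score was not tested. The share of mitochondrial reads was also lower in the same controls, with a mean of 4.60% ± 0.68 (SD, n = 7) against means of 5.04% to 5.32% in the other 5 groups, and the 3 of these controls among the 6 libraries had 3.43%, 4.34% and 4.39%. The oligodendrocyte list stood apart in them too, with a median summed level of 3053 CPM over its 8 genes and a range of 2426 to 4178 CPM, against medians of 2454 to 2629 CPM in the other groups; all 8 had reads in every library. Within groups its score had r = 0.0108 with Slc32a1; its part and that of the mitochondrial share in the group differences were not tested.

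**Figure D4:**
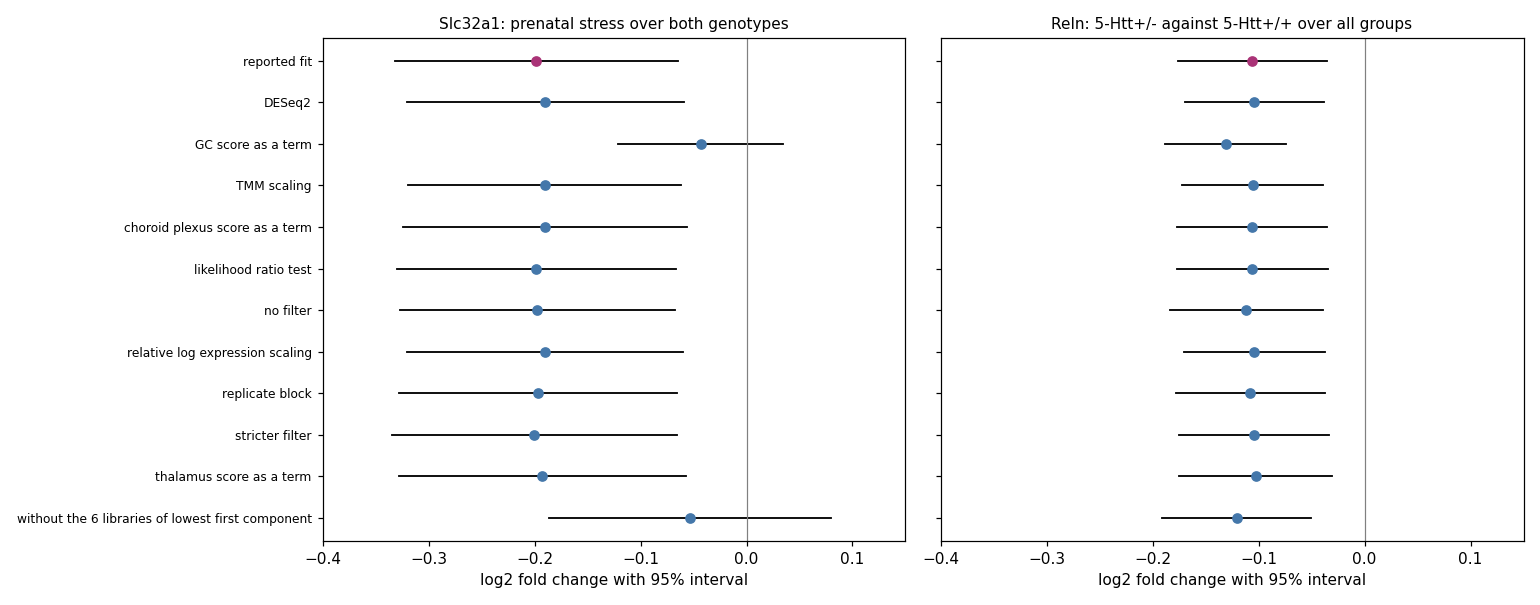
log2 fold change with its 95% interval (horizontal axes) of Slc32a1 after prenatal stress, at left, and of Reln between genotype labels, at right, in the reported fit and in 11 alternatives (vertical axis). Slc32a1 moves from -0.20 to -0.05 and -0.04 in the settings that leave out 6 libraries or add the GC score, while Reln stays between -0.13 and -0.10. These settings are not independent, and the libraries left out include the controls highest in Slc32a1.

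Many pairs of the 9 genes correlated across libraries, and fewer passed once the GC score was removed. After removal of the group means, 25 of 36 pairs correlated at an adjusted p under 0.05 (permutation test within groups, two-sided, adjusted over the 36), 19 positively and 6 negatively. The share over pairs of all genes was not computed, so this count does not set the 9 apart from other genes. Sst and Cck had the highest correlation (r = 0.741, rho = 0.760, adjusted p = 9e-05; 0.730 without the 2 libraries of most extreme Sst). Gad1 and Pvalb followed (r = 0.706, rho = 0.631), then Slc32a1 and Sst (r = 0.671), Slc32a1 and Cck (r = 0.647) and Sst and Npy (r = 0.634). The negative pairs were those of Gad2 with Slc32a1 (r = -0.502), Cck (r = -0.452), Pvalb (r = -0.409), Npy (r = -0.374) and Sst (r = -0.361), and that of Vip with Slc32a1 (r = -0.406). Without the 2 libraries farthest in the level of the first gene of each pair, Gad2 with Slc32a1 was still at -0.476, but Gad2 with Pvalb was at -0.186, with Npy at -0.210, with Sst at -0.257 and with Cck at -0.330, and Slc32a1 with Vip at -0.279. Among the positive pairs, Gad1 was likewise at 0.241 with Sst, 0.275 with Npy and 0.232 with Cck, from 0.352, 0.384 and 0.373. These relations rest in part on those libraries. The decarboxylase Gad2 and the vesicular transporter varied in opposite directions, and Gad1 and Gad2 were not related by this test (r = -0.275, adjusted p = 0.122). With TMM scaling in place of upper quartile scaling 15 pairs passed. No member was among the 3 genes most like another member, which are given further on.

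With the GC score removed as well, 10 pairs passed, 8 of them with the same sign as before, and none was negative. Gad2 and Slc32a1 turned from r = -0.502 to 0.471 (adjusted p = 0.0112). Sst and Cck were at 0.590, Gad1 and Pvalb at 0.642, and Pvalb and Vip, now the highest pair, at 0.703 in place of 0.375. Vip had r = 0.302 with Cck and 0.275 with Sst, neither of which passed. Without the 6 libraries lowest on the first component 15 pairs passed, 13 of them shared, and Gad1 and Gad2 correlated at 0.550 (n = 42).

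**Figure D5:**
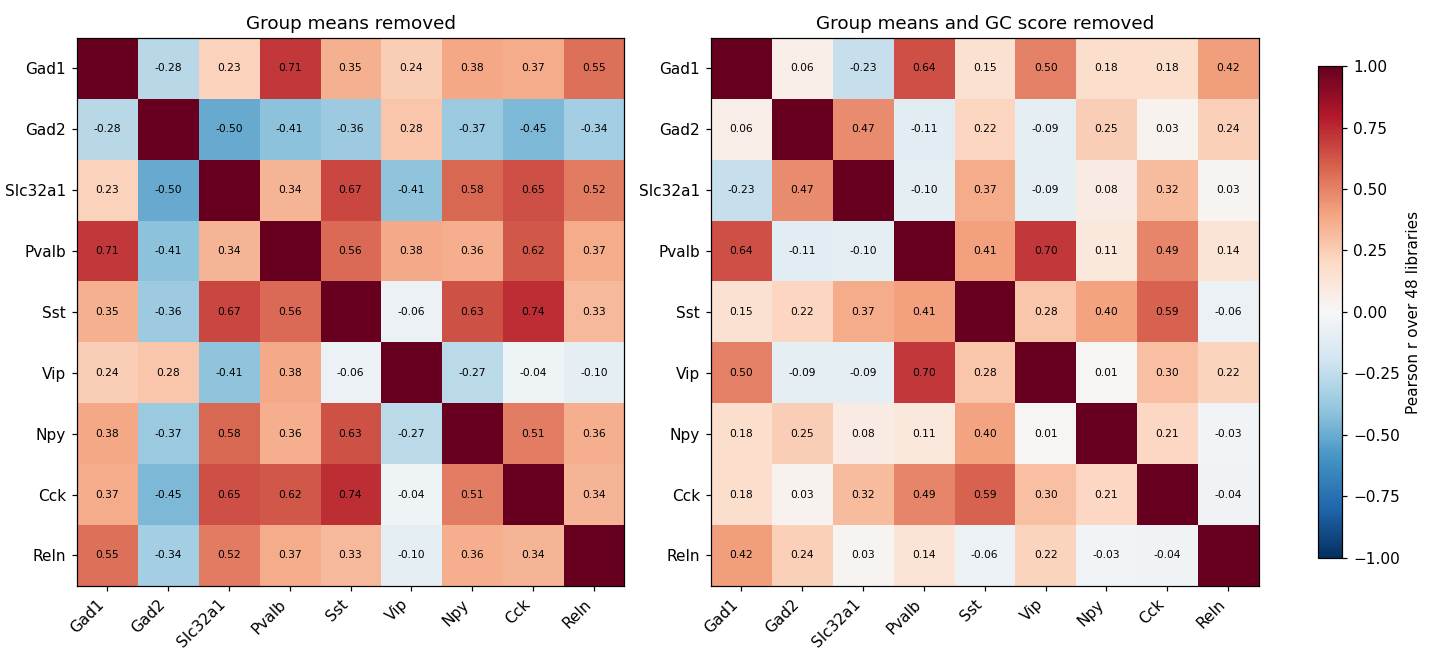
Pearson correlation (colour and number) of each pair of the 9 genes over 48 libraries, with group means removed (left) and with group means and GC score removed (right). The row of Gad2 is mostly negative at left (-0.50 with Slc32a1) and mostly positive at right (0.47 with Slc32a1).

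The genes most like each member across the 48 libraries, among 20028 genes of at least 1 CPM, followed its place on the GC score for Slc32a1 and Gad2. For Slc32a1 they were Cbarp (r = 0.922), Tmem151a (r = 0.921) and Atp9a (r = 0.912), with transcripts of 57.0% to 63.5% GC; for Gad2 they were Rab39b (r = 0.907), Camk4 (r = 0.903) and Rabep1 (r = 0.900), with at most 48.2%. These 6 genes themselves correlated with the GC score at 0.849 to 0.907 and at -0.931 to -0.860. Gad1 was most like Magee1 (r = 0.881), Nrsn1 (r = 0.828) and Gm3571 (r = 0.796). Pvalb was most like Prn and Prnp (both r = 0.825), which overlap each other and share reads, and Atp6v1e1 (r = 0.816). Sst and Cck shared Med26 as the nearest gene (r = 0.812 and 0.825), followed by Tubb3 (r = 0.804) and Cyc1 (r = 0.792) for Sst and by Rpl15-ps3 (r = 0.819) and Ndufb9 (r = 0.815) for Cck. Npy was most like Fbxo21 (r = 0.796), Kars (r = 0.790) and Gm8399 (r = 0.773), and Vip like Ldb2 (r = 0.779), Gm10701 (r = 0.778) and Klf6 (r = 0.764). Reln was most like its own antisense partner Gm10475 (r = 0.812), then Mtor (r = 0.728) and Rgs12 (r = 0.714).

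Markers of neighbouring tissue and of principal cells moved with some of the 9. Among 144 relations of the 9 genes with 16 marker lists, 25 passed an adjusted p of 0.05. Vip fell with the 12 pyramidal and granule cell markers (r = -0.630, rho = -0.584, adjusted p = 0.00216, permutation test; -0.511 with the GC score removed) and rose with the 10 neocortex markers (r = 0.528, rho = 0.548, adjusted p = 0.00912; 0.580 with the score removed). The neocortex list summed to 402 to 503 CPM over all libraries, with group medians of 442 to 467 CPM, and all of its genes had reads in every library. Whether neocortical tissue contributed to Vip was not tested. Pvalb and Cck fell with the 10 choroid plexus markers (r = -0.395 and -0.403, rho = -0.429 and -0.392, adjusted p = 0.0411 and 0.0414, permutation test; -0.334 and -0.338 with the score removed). All 10 of these markers had a fold change above 0 with prenatal stress over both genotypes, with a median of 0.54 on the log2 scale, and none passed a threshold. The stressed groups did not share this direction. Against C, all 10 were lower in SU labelled 5-Htt+/+ (median -0.17). All 10 were higher in SA labelled 5-Htt+/+ (0.84), and in SA (0.56) and SU (0.98) labelled 5-Htt+/-. The pyramidal and granule cell list rose with Slc32a1 (r = 0.609), and this fell to 0.0783 once the score was removed. Gad2 followed the 7 reelin receptor and pathway genes (r = 0.801, rho = 0.673; 0.513 with the score removed). The same list passed in the other direction with Slc32a1 (r = -0.566), Sst (-0.506), Pvalb (-0.489), Cck (-0.438) and Npy (-0.416). With Reln itself (r = -0.321), Gad1 (-0.289) and Vip (0.105) it did not pass. This list had r = -0.763 with the GC score. Gad1 rose with the 30 other interneuron subtype genes (r = 0.481, rho = 0.507, adjusted p = 0.00912, permutation test; 0.555 with the score removed), and Reln with the 6 astrocyte markers (r = 0.537, rho = 0.460, adjusted p = 0.00835; 0.346 with the score removed).

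The genes around the 9 gave 0 adjusted calls in all 11 comparisons, for 16 lists of 162 different genes. With prenatal stress over both genotypes, the unadjusted threshold called 10 of the 161 list entries tested as higher and 19 as lower (Calb1 and Calb2 stand in 2 lists each), beside 4.93% and 7.32% of all genes. Among the 9 genes of GABA uptake and breakdown 1 was higher and 2 lower, with the astrocytic GABA transporter Slc6a11 at -0.10 (SE 0.04, adjusted p = 0.352). Of 15 interneuron transcription factors 0 were higher and 1 lower. Of 30 other interneuron subtype genes 4 were higher and 1 lower, with Ndnf, a marker of neurogliaform cells, at 0.17 (SE 0.06, adjusted p = 0.333). Of 12 tested receptors for the peptides 1 was higher and 3 lower, with the neuropeptide Y receptor Npy2r at 0.12 (SE 0.05) and the somatostatin receptor Sstr2 at -0.18 (SE 0.08). Of the 7 perineuronal net genes, whose products sheathe parvalbumin cells, 2 were lower, among them brevican (Bcan) at -0.13 (SE 0.04, adjusted p = 0.322); 0 of 6 Cajal-Retzius markers and 2 of 7 reelin pathway genes (both higher) were below the unadjusted threshold. Of the lists for other cells and tissue, 1 of 12 pyramidal and granule cell genes was higher and 2 lower, 5 of 8 oligodendrocyte genes and 2 of 6 astrocyte genes were lower, 1 of 6 microglia genes was higher and 1 of 7 striatum and amygdala genes was lower. Among 10 thalamus, 10 neocortex, 10 choroid plexus and 6 endothelial and meningeal genes there was none.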

How the data were processed

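Single-end reads of 50 bases from hippocampal RNA had been mapped by the authors, whose notes to the repository name STAR, HTSeq, DESeq2 and GRCm38.p5 and whose methods name STAR, Salmon and tximport; for versions, strand setting and intronic reads: not given in the sources used here. The authors deposited whole-number counts per gene for 48440 genes, unfiltered and not normalised. A gene was tested where 3 or more libraries held 5 or more of its reads (31208 genes). In R 4.3.3, edgeR 4.0.16 (upper quartile scaling, 6 group means, quasi-likelihood F test, Benjamini-Hochberg adjustment over all genes) gave log2 fold changes; CPM is relative to the scaled library size, and log2 CPM used a prior count of 2. The tests were checked on simulated data. Alternatives were TMM and relative log expression scaling, the likelihood ratio test, DESeq2 1.42.0, other filters and further terms. Correlations used 100000 permutations within groups. Libraries are taken as separate animals, but litters are not given, so p-values may be too small where animals share a litter.

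The 9 genes and all lists were chosen with earlier results of these data known. All 9 genes are described, with up to 3 genes per list by smallest unadjusted p over the 11 comparisons and the 3 genes of highest correlation with each member. GC content came from GENCODE M21 transcripts, which gave a value for 99.4% of genes tested, and promoters from RefSeq (all 9 matched). Read depth limits the precision of a single library's value, and intervals from the fit cover the spread between libraries. Some genes of the lists are counted but not reported by name here.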

Additional observations from a re-analysis of the deposited data

Results flagged for a closer look

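In 8 cases a single library stood apart from the rest of its group by Dixon's ratio, among 54 groups of values tested (9 genes in 6 groups); chance alone gives about 1 in 20 groups. Replicate 7 of 5-Htt+/+ C was the highest of its group for Gad1 (304 CPM, next 267 CPM), Pvalb (24.9 CPM, next 19.05 CPM) and Cck (147 CPM, next 134 CPM), and it is also the library lowest on the first component. Gad2 was apart in 3 groups: replicate 5 of 5-Htt+/+ SA was low (108 CPM, next 124 CPM), while replicate 6 of 5-Htt+/+ SU (159 CPM, next 138 CPM) and replicate 4 of 5-Htt+/- SA (160 CPM, next 134 CPM) were high. Gad1 was low in replicate 3 of 5-Htt+/+ SU (240 CPM, next 262 CPM). Npy was high in replicate 7 of 5-Htt+/- SA (23.7 CPM, next 18.2 CPM). Replicate 5 of 5-Htt+/+ SA, too, is among the 6 libraries lowest on the first component.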

How the results depend on the processing

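No gene of the 9 passed the adjusted threshold under any alternative run: 11 alternatives covered all 11 comparisons, and a fit of only the groups compared covered 8 of them. Over these 1161 values the smallest adjusted p was 0.0874, for Reln between genotype labels with the GC score as a term. The sign changed in 66 of these values. Of the values printed for prenatal stress over both genotypes, Gad2 turned to -0.01 without the 6 libraries lowest on the first component and with the GC score as a term (-0.0111 and -0.0101), Vip to -0.00448 with the score, Npy to 0.00249 without the 6 libraries and 0.0372 with the score, and Cck to 0.0137 without the 6 libraries. Gad1 gave 0.0603 and 0.0666 in place of 0.0381 without the 6 libraries and with the score, and Pvalb 0.135 and 0.0914 in place of 0.0153. Slc32a1 in SA labelled 5-Htt+/- turned to 0.00877 without the 6 libraries, which include the controls of that label highest in Slc32a1. The number of related pairs fell from 25 to 15 with TMM scaling, to 15 without the 6 libraries and to 10 with the score removed. Mean levels of the 9 genes stayed within 1 SD under both other scalings, which shifted the median of all genes by at most 0.0147 (log2).

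With the replicate number as a block, 0 of 9 genes passed in each comparison; Slc32a1 gave -0.197 with prenatal stress over both genotypes (adjusted p = 0.289) and Reln -0.108 between genotype labels (adjusted p = 0.906). The numbers do not pair the samples: of 115 pairs of libraries sharing a number, 6 deviated together at a correlation over 0.1 (median -0.000985), and 8 of 48 libraries correlated best with their own number.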

Other observations

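Some differences among the 9 genes appeared only under particular settings, and all stayed short of the adjusted threshold. With the GC score as a term, Gad1 gave 0.13 (SE 0.05, unadjusted p = 0.00673, adjusted p = 0.374) and Pvalb 0.24 (SE 0.10, unadjusted p = 0.0153, adjusted p = 0.421) in SU against C labelled 5-Htt+/-. Without the 6 libraries lowest on the first component, Pvalb gave 0.27 (SE 0.10, unadjusted p = 0.0106) in SA and 0.26 (SE 0.10, unadjusted p = 0.0132) in SU against the same controls, and the smaller adjusted p was 0.605. These comparisons share their control libraries, of which 4 remained when the 6 were left out. The controls left out were at 22.6, 21.3 and 15.9 CPM of Pvalb, and the 4 that remained at 13.7 to 17.3 CPM. The unadjusted threshold called 1473 (SA) and 2151 (SU) of 30995 genes without the 6 libraries. With the GC score as a term it called 2907 of 31208 genes in SU.

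The antisense gene Gad1os, which overlaps Gad1 and had 1.48% as many reads, gave -0.26 (SE 0.10, unadjusted p = 0.0121, adjusted p = 0.239) in SU against C labelled 5-Htt+/-, where Gad1 gave 0.08 (SE 0.05). It was named after its values were seen.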
